A study of Mus musculus with 16 samples.

Results

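The interleukin genes, the cytokines that signal through gp130, their receptors and the suppressors of cytokine signalling (Socs) were followed in mouse hippocampus, where 91 such genes stood among 22180 measured. They were chosen by symbol alone: every gene whose symbol begins with Il and a digit, Socs1 to Socs7, and Lif, Lifr, Osm, Osmr, Clcf1 and Cntfr. Cntf, Il4i1 and Il4i1b also met the rule but were read only by probe sets that carry several symbols, and they were not analysed here. Expression was measured on Affymetrix arrays from total hippocampal RNA of 16 C57BL/6 mice aged 8 to 10 weeks, with 1 array a mouse and 4 arrays in each of 4 groups. The groups were Astro-D2KO mice after status epilepticus (SE, a prolonged seizure), Astro-D2KO mice given saline, control mice after SE and control mice given saline. By their labels, Astro-D2KO mice carried floxed Dio2 and a glial cre, and control mice carried the glial cre with wild-type Dio2. Dio2 encodes the type 2 deiodinase, which turns thyroxine into the active thyroid hormone T3. Lithium chloride (10 mEq/kg) had been given to every mouse 18 h earlier, and then either saline or pilocarpine (65 mg/kg), which sets off SE. The groups thus share lithium, and the drug and the seizure cannot be told apart. The promoter that drives the glial cre and the interval between pilocarpine and collection were not stated in the labels, nor were sex and hybridisation batch. The study asked whether SE alters thyroid hormone signalling in the brain and how the early hippocampal transcript response to SE runs.

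Values are RMA levels read as log2 units, so a difference of 1 is a doubling. Tests were made with limma, on both sides, over all 22180 genes, a gene passed at a Benjamini-Hochberg adjusted p under 0.05. Values after ± are standard errors for log2 changes and SDs for group means. The arrays correlated with each other at 0.972 to 0.994. Dio2, which checks the genotype, stood at 6.78 ± 0.23 in Astro-D2KO saline mice, against 8.14 ± 0.19 in control saline mice (SD, n = 4 each, exact permutation p = 0.0286, the smallest possible for 4 against 4). After SE it stood at 7.56 ± 0.91 in Astro-D2KO mice, against 8.96 ± 0.67 in control mice (SD, n = 4 each, exact permutation p = 0.0571). Dio2 reached 8.91 on the array labelled Astro-D2KO SE replicate 1, while the other Astro-D2KO SE arrays lay between 7.03 and 7.17. The array labelled control SE replicate 4 had 8.00, below the other control SE arrays at 9.11 to 9.51. The first lies above every control saline array and so goes against its label. The second is low for its group but lies inside the control saline range of 7.87 to 8.28. The main counts, and the calls that change, are given with and without this pair, called the arrays with outlying Dio2. The summed level of 6 hippocampal neuron genes lay between 11.04 and 11.71 on every array. No other tissue was compared, so these sums do not check the dissection.

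Interleukins are secreted signals, mostly between immune cells, and several are also made by microglia, astrocytes, endothelium and neurons in injured brain. Interleukin 6, interleukin 11, leukaemia inhibitory factor (Lif), oncostatin M (Osm) and cardiotrophin-like cytokine factor 1 (Clcf1) bind receptors that share the gp130 subunit, encoded by Il6st, and activate JAK kinases and the transcription factor STAT3. STAT3 raises Socs3, whose product binds gp130 and JAKs and shuts the signal off. Interleukin 1 alpha and beta bind the receptor encoded by Il1r1 and activate NF-kB through MyD88, and Il1r2 encodes a decoy receptor that binds the ligand without signalling.

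The promoter windows of the 4 genes that passed in both genotypes under every alternative that tested them are shown because these genes carry the result. Each runs from 250 bases before to 50 bases after the annotated start (RefSeq, GRCm38.p6). Il1a lies at chr2:129309923-129310222 on the minus strand, Il6 at chr5:30012864-30013163 on the plus strand, Osmr at chr15:6874264-6874563 on the minus strand and Socs3 at chr11:117969317-117969616 on the minus strand. Capitals mark matches to the AP-1 motif TGANTCA, the NF-kB motif (GGGA, any base, TTTCC) and the STAT motif TTCNNNGAA, searched on both strands.
Il1a: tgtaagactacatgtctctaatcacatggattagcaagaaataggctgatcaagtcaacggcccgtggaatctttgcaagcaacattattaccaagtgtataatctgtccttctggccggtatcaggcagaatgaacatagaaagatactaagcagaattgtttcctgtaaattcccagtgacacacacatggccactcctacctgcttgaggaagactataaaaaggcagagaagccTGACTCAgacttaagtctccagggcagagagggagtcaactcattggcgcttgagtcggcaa
Il6: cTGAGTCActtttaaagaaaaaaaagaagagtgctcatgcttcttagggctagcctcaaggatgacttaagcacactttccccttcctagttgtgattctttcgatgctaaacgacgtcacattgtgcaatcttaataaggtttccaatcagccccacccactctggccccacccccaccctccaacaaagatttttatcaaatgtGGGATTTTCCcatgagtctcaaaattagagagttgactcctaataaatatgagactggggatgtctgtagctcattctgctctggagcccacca
Osmr: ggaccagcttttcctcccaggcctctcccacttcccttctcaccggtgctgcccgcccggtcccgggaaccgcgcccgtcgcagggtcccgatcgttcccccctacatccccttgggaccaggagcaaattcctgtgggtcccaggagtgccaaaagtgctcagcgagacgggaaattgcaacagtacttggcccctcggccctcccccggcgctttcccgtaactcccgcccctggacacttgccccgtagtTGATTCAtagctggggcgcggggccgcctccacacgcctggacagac
Socs3: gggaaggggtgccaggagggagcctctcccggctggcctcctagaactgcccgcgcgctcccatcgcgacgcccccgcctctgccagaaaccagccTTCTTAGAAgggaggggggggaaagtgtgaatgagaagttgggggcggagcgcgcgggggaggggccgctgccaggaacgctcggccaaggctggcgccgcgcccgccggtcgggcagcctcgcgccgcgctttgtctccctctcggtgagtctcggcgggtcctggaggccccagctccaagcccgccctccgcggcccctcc
The AP-1 match of Il1a is TGACTCA, whose first base is at -12 from the start. Il6 holds TGAGTCA at -249 and GGGATTTTCC at -44. Osmr holds TGATTCA just after the start, and Socs3 holds TTCTTAGAA at -154. A match is a description of the letters and not a binding site. Promoter entries were found for 68 of the 91 genes and for 15 of the 20 that passed a test of SE. Among those 15, the STAT motif occurred in 3 (Il1r2, Il4 and Socs3), against 9.55% of all genes with a window. The AP-1 motif occurred in 5 (Il11, Il16, Il1a, Il6 and Osmr), against 8.97%, and the NF-kB motif in 2 (Il16 and Il6), against 0.466%. The cyclic AMP response motif TGACGTCA was in none of them, against 2.03% of genes.

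These genes passed tests of SE and none of genotype, and those that passed with SE mostly rose. Averaged over the genotypes, 15 of the 91 rose and 4 fell, while 12.1% of all genes rose and 20.6% fell (32.6% changed in either direction). As shares, 16.5% of the 91 rose and 4.4% fell. In either direction 20.9% of them changed, a smaller share than of all genes, and their median log2 change was 0.07, against -0.01 over all genes. In Astro-D2KO mice 12 rose (13.2%, against 7.49% of all genes) and 3 fell (3.3%, against 12.6%), and 16.5% changed in either direction, against 20.1% of all genes. In control mice 11 rose (12.1%, against 8.42% of all genes) and 1 fell (1.1%, against 13.7%), and 13.2% changed in either direction, against 22.1%. At an unadjusted p under 0.05 there were 23 of the 91 in Astro-D2KO mice (30.8% of all genes), 20 in control mice (33.0%) and 27 in the average (40.9%). The SE arrays lay wholly above the saline arrays for 12 genes in Astro-D2KO mice (9.54% of all genes) and 10 in control mice (8.46%), and wholly below for 3 (15.1%) and 2 (13.7%). Over both genotypes together, all SE arrays exceeded all saline arrays for 3 genes, Il6, Il1a and Socs3 (4.68% of all genes), and lay below them for 0 (7.48%). The averaged comparison uses the arrays of both and adds no new mice. Genes that passed in both genotypes numbered 9, which is 60% of the 15 in Astro-D2KO mice and 75% of the 12 in control mice: Il13ra1, Il1a, Il1b, Il34, Il6, Osm, Osmr, Socs3 and Socs5. Without both arrays with outlying Dio2, the averaged comparison gave 15 that rose and 4 that fell, and 17 of the 19 calls were shared, with Socs1 and Socs2 lost and Il10rb and Il9 gained. In the same setting Astro-D2KO mice gave 13 calls, of which 11 were shared, and control mice 10 calls, of which 9 were shared. Astro-D2KO mice lost the calls of Il16, Il1b, Il1r1 and Socs5 and gained those of Il1r2 and Il9. Control mice lost the calls of Il13ra1, Il23r and Il34 and gained that of Il1rapl1. Leaving out 1 array at a time ended 9 of the 15 calls in Astro-D2KO mice and 6 of the 12 in control mice in at least 1 of 16 such fits, but only those of Socs1 and Socs2 among the 19 averaged calls.

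**Figure D1:**
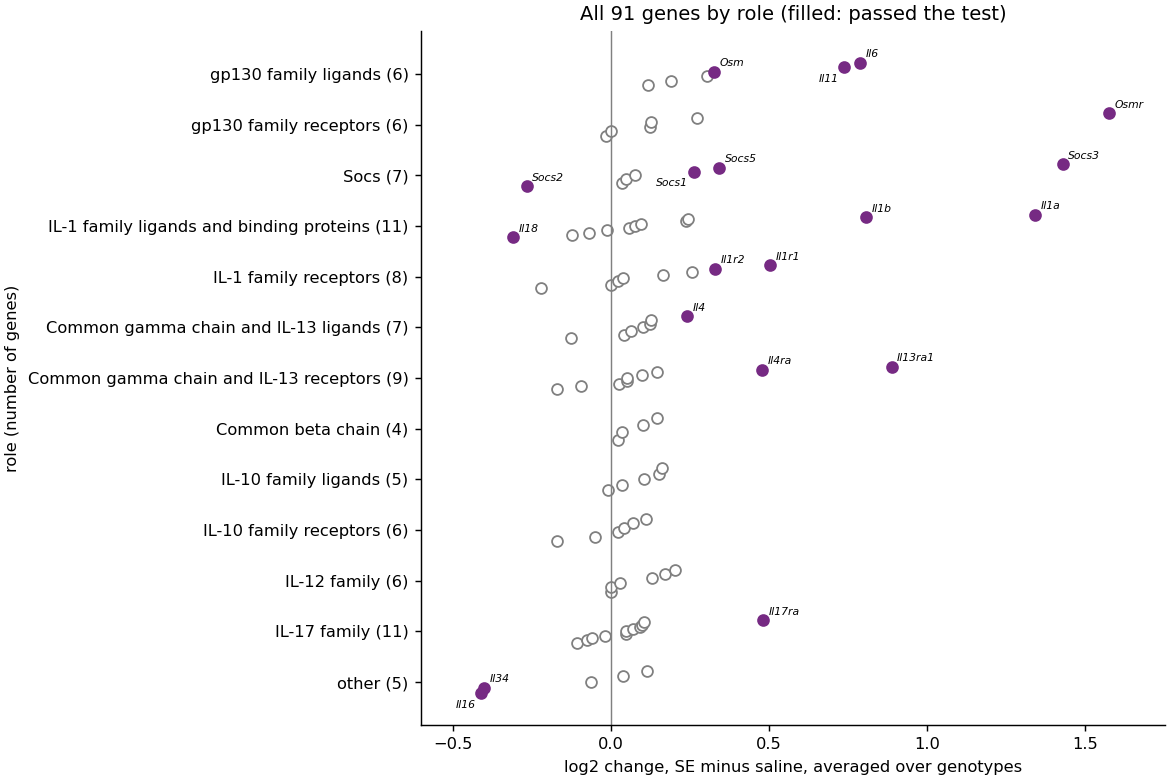
Log2 change with SE averaged over the genotypes (horizontal axis, SE minus saline) for all 91 genes, 1 point a gene, grouped by role (vertical axis, number of genes in parentheses); filled points passed limma at an adjusted p under 0.05. Osmr (1.57), Socs3 (1.43) and Il1a (1.34) lie farthest from 0, and the IL-10, IL-12 and common beta chain rows hold no filled point.

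Of the 6 gp130 cytokine genes among the 91, 3 rose with SE and 0 fell in the averaged comparison. Il6 had 4.00, 3.70, 3.39 and 3.79 in Astro-D2KO SE mice, against 2.83, 3.08, 3.10 and 2.83 in Astro-D2KO saline mice. It had 3.83, 3.48, 3.82 and 3.82 in control SE mice, against 2.96, 2.99, 2.71 and 3.03 in control saline mice. Every SE array lay above every saline array, although the levels are low: the Il6 probe set averaged 3.34 over all arrays, and 30 of the 91 genes averaged under 5. The rise of Il6 was 0.76 ± 0.12 in Astro-D2KO mice (adjusted p = 2.89e-04) and 0.82 ± 0.12 in control mice (adjusted p = 1.28e-04). Since a filter on dim genes removed Il6, its saline level was not shown to lie above background, and no fold is given.

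Il11 encodes a gp130 cytokine studied in megakaryocytes and fibroblasts. It had 5.94, 6.33, 6.67 and 6.40 in Astro-D2KO SE mice, against 5.17, 5.39, 5.40 and 5.92 in Astro-D2KO saline mice, with no overlap. It had 5.66, 5.96, 6.30 and 7.03 in control SE mice, against 5.72, 5.25, 5.64 and 5.88 in control saline mice, where the groups overlapped. Il11 rose by 0.86 ± 0.24 in Astro-D2KO mice (adjusted p = 0.0148), and its change in control mice, 0.61 ± 0.24, did not pass (adjusted p = 0.0732). The rise in Astro-D2KO mice did not pass without Astro-D2KO SE replicate 3 (0.75, adjusted p = 0.0537) or Astro-D2KO saline replicate 1 (0.76, adjusted p = 0.0528). Without control SE replicate 1 the control change passed (0.81, adjusted p = 0.0220), and averaged over the genotypes Il11 rose by 0.74 ± 0.17 (adjusted p = 0.00214).

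Osm, made in blood by neutrophils and macrophages, moved less. It had 6.34, 6.17, 6.29 and 6.29 in Astro-D2KO SE mice, against 6.01, 5.86, 5.95 and 5.84 in Astro-D2KO saline mice. It had 6.24, 6.11, 6.30 and 6.02 in control SE mice, against 5.74, 5.74, 5.92 and 6.07 in control saline mice, where replicate 4 of each control group overlapped the other. Osm rose by 0.35 ± 0.09 in Astro-D2KO mice (adjusted p = 0.00801) and by 0.30 ± 0.09 in control mice (adjusted p = 0.0206). The control call was lost without control SE replicate 1 or 3 or control saline replicate 1 or 2, with changes of 0.25 to 0.28 and adjusted p-values of 0.0569 to 0.0715.

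Lif spread widely under saline. It had 6.34, 6.73, 6.72 and 6.73 in Astro-D2KO SE mice, against 5.93, 6.15, 5.66 and 7.69 in Astro-D2KO saline mice. Lif had 6.08, 6.17, 6.60 and 6.76 in control SE mice, against 6.81, 5.80, 5.81 and 5.86 in control saline mice. Astro-D2KO saline replicate 4 and control saline replicate 1 thus exceeded all SE arrays of their genotype. The averaged change of Lif was 0.30 ± 0.23 (adjusted p = 0.364) and that of Clcf1 0.19 ± 0.14 (adjusted p = 0.340). Without Astro-D2KO saline replicate 4 alone, Lif passed with a rise of 0.53 (adjusted p = 0.0136) and Clcf1 with a rise of 0.31 (adjusted p = 0.0295). The cytokine subunit gene Il27 changed by 0.12 ± 0.09 and did not pass (adjusted p = 0.373).

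Of the 6 genes of the gp130 receptor group, only Osmr passed, and its rise was the largest of all 91 genes in the averaged comparison. Osmr encodes the subunit that pairs with gp130 to bind oncostatin M. It had 9.26, 9.03, 9.21 and 8.97 in Astro-D2KO SE mice, against 7.28, 7.62, 6.62 and 8.69 in Astro-D2KO saline mice. It had 8.83, 8.83, 8.60 and 9.28 in control SE mice, against 8.36, 7.89, 6.60 and 6.36 in control saline mice. Within each genotype the SE and saline arrays did not overlap, although the saline arrays spread over more than 2 log2 units in Astro-D2KO mice (SD 0.86) and a similar span in control mice (SD 0.97). Osmr rose 2.96-fold in Astro-D2KO mice (1.57 ± 0.40, adjusted p = 0.00935) and 2.99-fold in control mice (1.58 ± 0.40, adjusted p = 0.00796).

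None of the shared and ligand-specific subunits other than Osmr passed. Il6st averaged 9.25 ± 0.11 in Astro-D2KO SE mice and 9.16 ± 0.09 in Astro-D2KO saline mice, and 9.24 ± 0.14 in control SE mice and 9.09 ± 0.06 in control saline mice (SD, n = 4 each). Its averaged change was 0.12 ± 0.06 (adjusted p = 0.130). Lifr, the receptor subunit for Lif, changed by 0.00 ± 0.07 (95% confidence interval -0.14 to 0.15), and Cntfr, the receptor for ciliary neurotrophic factor, by 0.13 ± 0.07 (adjusted p = 0.179). Il6ra, which encodes the chain that binds interleukin 6, changed by 0.27 ± 0.11 and missed the threshold (adjusted p = 0.0599). It passed under several other settings, among them repeated quantile normalisation (0.34, adjusted p = 0.0165), and without control SE replicate 2 or 3 or control saline replicate 1 (adjusted p of 0.0114 to 0.0311). Il27ra changed by -0.02 ± 0.08 (adjusted p = 0.900).

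**Figure D2:**
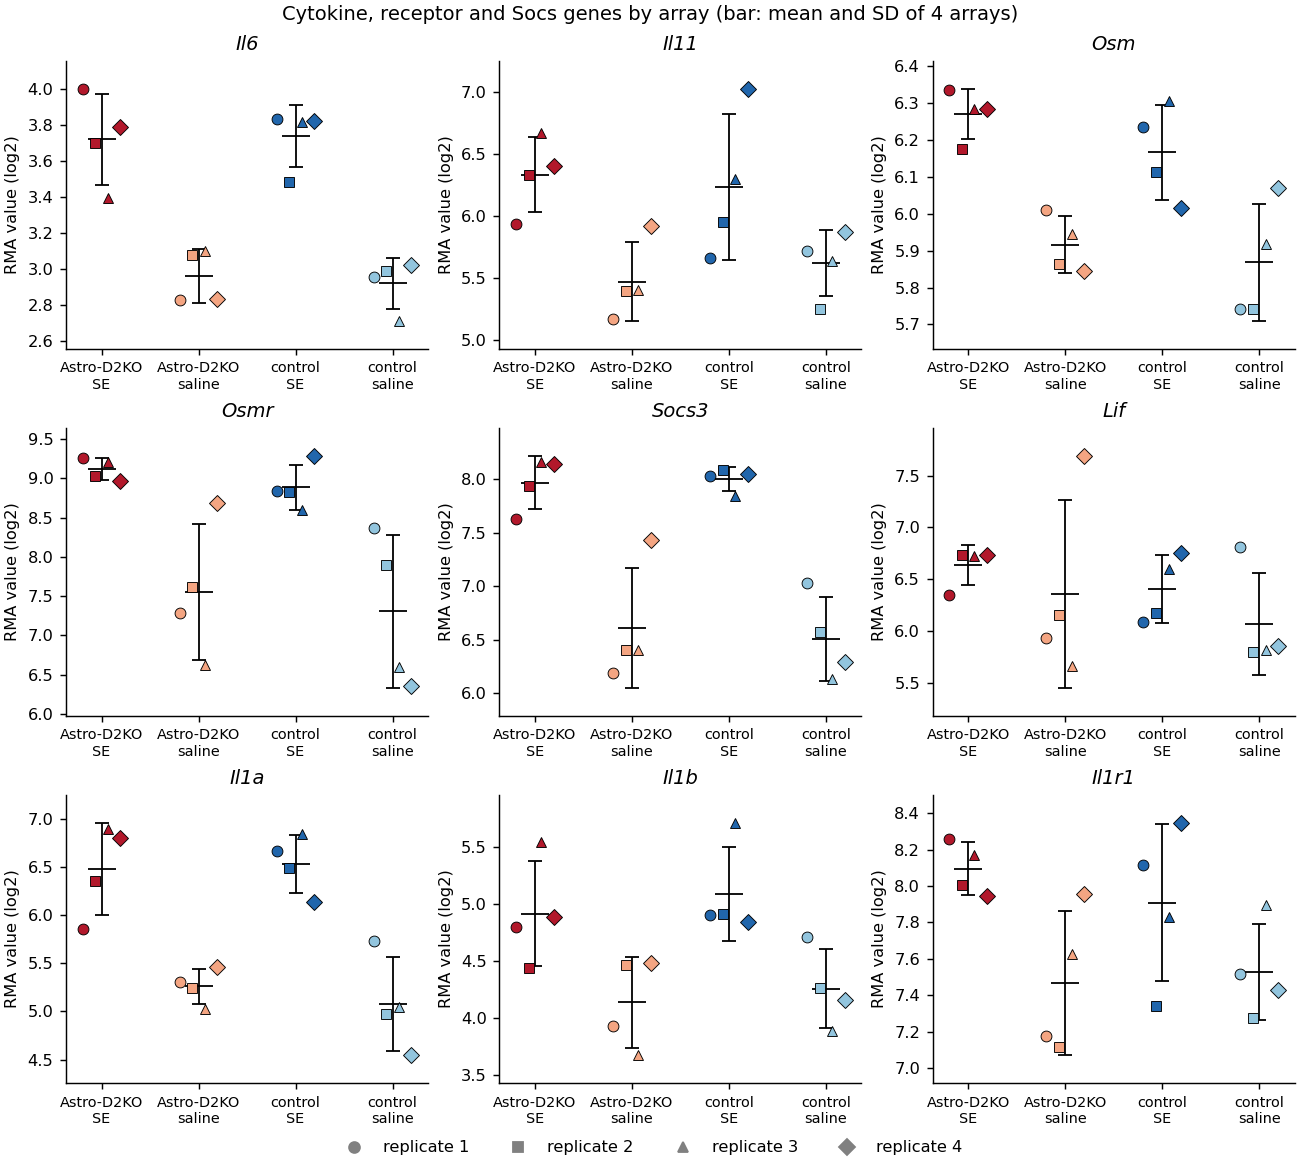
RMA log2 value (vertical axes) of 9 cytokine, receptor and Socs genes on each of the 16 arrays, by group (horizontal axes), with marker shape giving the replicate number and bars the mean and SD of 4 arrays. Il6, Osmr, Socs3 and Il1a have no overlap between SE and saline within a genotype, and Astro-D2KO saline replicate 4 lies highest of its group for Il11, Osmr, Socs3, Lif, Il1a, Il1b and Il1r1.

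Among the 7 Socs genes, Socs3, Socs5 and Socs1 rose and Socs2 fell in the averaged comparison. Socs3 had 7.63, 7.94, 8.16 and 8.15 in Astro-D2KO SE mice, against 6.19, 6.41, 6.41 and 7.44 in Astro-D2KO saline mice. It had 8.04, 8.09, 7.84 and 8.05 in control SE mice, against 7.03, 6.58, 6.13 and 6.30 in control saline mice. All 8 SE arrays exceeded all 8 saline arrays, with Astro-D2KO saline replicate 4 the closest. Socs3 rose by 1.36 ± 0.22 in Astro-D2KO mice (adjusted p = 3.62e-04) and by 1.50 ± 0.22 in control mice (adjusted p = 1.26e-04), 2.56-fold and 2.82-fold. A second, dimmer Socs3 probe set, with a mean of 5.19, rose by 0.29 ± 0.09 in the averaged comparison (adjusted p = 0.0174 over all single-symbol probe sets). The mean of both probe sets rose by 0.86, so the size of the Socs3 change depends on the probe set and its direction does not.

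Socs5, whose product acts on EGF receptor and interleukin 4 signalling, had 7.78, 7.30, 7.09 and 7.38 in Astro-D2KO SE mice, against 6.89, 7.08, 7.08 and 7.05 in Astro-D2KO saline mice. It had 7.40, 7.37, 7.36 and 7.26 in control SE mice, against 6.95, 6.997, 7.06 and 7.10 in control saline mice. The groups did not overlap in either genotype, by a small margin in Astro-D2KO mice. Socs5 rose by 0.36 ± 0.11 in Astro-D2KO mice (adjusted p = 0.0244) and by 0.32 ± 0.11 in control mice (adjusted p = 0.0426). The Astro-D2KO change was 0.23 without the array labelled Astro-D2KO SE replicate 1 (adjusted p = 0.0749) and 0.32 without Astro-D2KO saline replicate 1 (adjusted p = 0.0812). The control call ended in 10 of the 16 fits that left out 1 array, with changes of 0.30 to 0.35, and the averaged rise of 0.34 ± 0.08 passed in all 16.

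Socs1, an inhibitor of interferon and interleukin signalling, rose by 0.26 ± 0.09 averaged over the genotypes (adjusted p = 0.0251). It did not pass without Astro-D2KO saline replicate 3, control SE replicate 1 or control saline replicate 1 (0.21 to 0.24, adjusted p of 0.0533 to 0.0555), nor without both arrays with outlying Dio2 (0.23, adjusted p = 0.0831). Socs2, the suppressor of growth hormone signalling, averaged 6.77 ± 0.11 in Astro-D2KO SE mice and 7.10 ± 0.07 in Astro-D2KO saline mice, and 6.95 ± 0.11 in control SE mice and 7.15 ± 0.32 in control saline mice (SD, n = 4 each). It fell by 0.27 ± 0.09 in the averaged comparison (adjusted p = 0.0234), a call that ended without the array labelled Astro-D2KO SE replicate 1, control SE replicate 1 or control saline replicate 1 or 2 (adjusted p of 0.0510 to 0.0552). A second Socs2 probe set changed by -0.02 ± 0.06 (adjusted p = 0.820). Socs4, Socs6 and Socs7 had averaged changes of 0.07, 0.04 and 0.05 and did not pass.

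Of the 11 IL-1 family ligands and binding proteins, 2 rose and 1 fell, and of the 8 receptors 2 rose. Il1a, which encodes interleukin 1 alpha, had 5.86, 6.36, 6.90 and 6.80 in Astro-D2KO SE mice, against 5.31, 5.25, 5.02 and 5.46 in Astro-D2KO saline mice. It had 6.67, 6.49, 6.84 and 6.14 in control SE mice, against 5.73, 4.97, 5.05 and 4.55 in control saline mice. All SE arrays exceeded all saline arrays, and the array labelled Astro-D2KO SE replicate 1 was the lowest of the 8. Il1a rose 2.33-fold in Astro-D2KO mice (1.22 ± 0.23, adjusted p = 0.00123) and 2.75-fold in control mice (1.46 ± 0.23, adjusted p = 2.31e-04).

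Il1b, which encodes interleukin 1 beta, had 4.80, 4.44, 5.54 and 4.88 in Astro-D2KO SE mice, against 3.93, 4.47, 3.68 and 4.48 in Astro-D2KO saline mice, where replicate 2 of the SE group lay below 2 saline arrays. It had 4.90, 4.92, 5.71 and 4.84 in control SE mice, against 4.71, 4.27, 3.88 and 4.16 in control saline mice, with no overlap. Il1b rose by 0.78 ± 0.25 in Astro-D2KO mice (adjusted p = 0.0325) and by 0.83 ± 0.25 in control mice (adjusted p = 0.0204). Its level was low, with a mean of 4.60 over all arrays. The filter on dim genes removed Il1b as it did Il6, so its saline level was not shown to lie above background. Leaving out 1 array ended the Astro-D2KO call for SE replicates 3 and 4 and saline replicates 1 and 3 of that genotype (0.57 to 0.79, adjusted p of 0.0581 to 0.122). It ended the control call for control SE replicate 3 (0.63, adjusted p = 0.0804) and control saline replicate 3 (0.71, adjusted p = 0.0706). The averaged rise of 0.81 ± 0.17 passed in all 16 such fits (adjusted p = 0.00143 with all arrays).

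Il18, a ligand released by the inflammasome, went the other way. It averaged 7.32 ± 0.22 in Astro-D2KO SE mice and 7.72 ± 0.30 in Astro-D2KO saline mice, and 7.56 ± 0.18 in control SE mice and 7.78 ± 0.05 in control saline mice (SD, n = 4 each). Il18 fell by 0.31 ± 0.10 in the averaged comparison (adjusted p = 0.0178) and by 0.40 ± 0.14 in Astro-D2KO mice (adjusted p = 0.0434), where the call ended in 12 of the 16 fits that left out 1 array. The averaged fall did not pass after repeated quantile normalisation (-0.25, adjusted p = 0.0658). Il33, a nuclear alarmin of glia, had 9.04 on Astro-D2KO saline replicate 4, above all SE arrays, and its averaged change of 0.24 ± 0.17 did not pass (adjusted p = 0.334). Without that array it passed, with a rise of 0.39 (adjusted p = 0.0256). Il1rn, the natural antagonist of interleukin 1 receptors, changed by 0.24 ± 0.11 (adjusted p = 0.0895) and Il18bp, the soluble binder of interleukin 18, by 0.08 ± 0.06 (adjusted p = 0.388). Il1rn passed without control SE replicate 1 (0.30, adjusted p = 0.0363) or control saline replicate 4 (0.31, adjusted p = 0.0218).

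The signalling receptor Il1r1 had 8.26, 8.01, 8.17 and 7.95 in Astro-D2KO SE mice, against 7.18, 7.12, 7.62 and 7.96 in Astro-D2KO saline mice. It had 8.11, 7.34, 7.83 and 8.35 in control SE mice, against 7.52, 7.28, 7.90 and 7.43 in control saline mice. The groups overlapped in both genotypes, and control SE replicate 2 stayed at the saline level. Il1r1 rose by 0.63 ± 0.20 in Astro-D2KO mice (adjusted p = 0.0356), and the 0.38 ± 0.20 in control mice did not pass (adjusted p = 0.207). Without control SE replicate 2 the control change was 0.57 and passed (adjusted p = 0.0415). The Astro-D2KO call ended without any 1 of that genotype's SE replicates 1, 2 and 3 or saline replicates 1 and 2 (0.51 to 0.66, adjusted p of 0.0552 to 0.114). The decoy receptor Il1r2 rose by 0.42 ± 0.12 in control mice (adjusted p = 0.0224), where the arrays did not overlap. In Astro-D2KO mice its change was 0.24 ± 0.12 (adjusted p = 0.201), and 0.37 without the array labelled Astro-D2KO SE replicate 1, which then passed (adjusted p = 0.0321). The control call for Il1r2 ended without control SE replicate 3, the array labelled control SE replicate 4, or control saline replicate 1 or 4 (0.35 to 0.39, adjusted p of 0.0563 to 0.0733). The averaged rises were 0.50 ± 0.14 for Il1r1 (adjusted p = 0.0108) and 0.33 ± 0.09 for Il1r2 (adjusted p = 0.00730). Il1rap, the co-receptor chain that both receptor types recruit, changed by -0.22 ± 0.09 and missed the threshold (adjusted p = 0.0552). It passed without Astro-D2KO SE replicate 4, Astro-D2KO saline replicate 1, control SE replicate 3 or control saline replicate 1 (-0.27 to -0.25).

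Il13ra1 and Il4ra, which bind interleukins 13 and 4, rose among the 9 common gamma chain and IL-13 receptors. Il13ra1 had 7.62, 7.62, 8.01 and 7.48 in Astro-D2KO SE mice, against 6.73, 6.74, 6.39 and 7.55 in Astro-D2KO saline mice. It had 7.37, 7.34, 7.33 and 8.37 in control SE mice, against 7.25, 6.85, 6.40 and 6.13 in control saline mice. The array labelled control SE replicate 4 was the highest of all 16, and Astro-D2KO saline replicate 4 lay inside the range of its SE group. Il13ra1 rose by 0.83 ± 0.27 in Astro-D2KO mice (adjusted p = 0.0370) and by 0.94 ± 0.27 in control mice (adjusted p = 0.0174). Without the array labelled control SE replicate 4 the control change was 0.69 and did not pass (adjusted p = 0.0605), nor did it without control saline replicate 3 or 4 (adjusted p of 0.0537 to 0.0623). The Astro-D2KO call ended in 6 of the 16 fits that left out 1 array (0.68 to 0.85), and the averaged rise of 0.89 ± 0.19 (adjusted p = 0.00142) passed in all 16.

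Il4ra, the chain that pairs with Il13ra1 or with the common gamma chain, had 7.40, 7.40, 7.69 and 7.46 in Astro-D2KO SE mice, against 6.92, 6.96, 7.06 and 7.51 in Astro-D2KO saline mice. It had 7.57, 7.42, 7.25 and 7.80 in control SE mice, against 7.16, 6.81, 6.66 and 7.08 in control saline mice. The control groups did not overlap, and the Astro-D2KO groups did through saline replicate 4. Il4ra rose by 0.58 ± 0.14 in control mice (adjusted p = 0.00689), and its 0.38 ± 0.14 in Astro-D2KO mice did not pass (adjusted p = 0.0788). The ligand Il4 rose by 0.30 ± 0.10 in Astro-D2KO mice (adjusted p = 0.0458), at a mean level of 4.53 over all arrays, and that call ended in 10 of the 16 fits that left out 1 array. Its averaged rise was 0.24 ± 0.07 (adjusted p = 0.0172).

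Il17ra, the receptor chain common to most interleukin 17 ligands, was the only 1 of 11 IL-17 family genes to pass. It had 7.63, 7.58, 7.60 and 7.60 in Astro-D2KO SE mice, against 6.94, 6.97, 6.81 and 7.50 in Astro-D2KO saline mice. It had 7.56, 7.27, 7.33 and 7.99 in control SE mice, against 7.19, 7.05, 7.01 and 7.25 in control saline mice. Neither genotype's groups overlapped, by a narrow margin in both. Il17ra rose by 0.55 ± 0.15 in Astro-D2KO mice (adjusted p = 0.0123), and the 0.41 ± 0.15 in control mice just missed (adjusted p = 0.0514). The averaged rise was 0.48 ± 0.10 (adjusted p = 0.00139).

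Il34 and Il16 fell. Il34 encodes a neuronal ligand of the CSF1 receptor, on which microglia depend. It had 6.88, 6.78, 6.79 and 7.14 in Astro-D2KO SE mice, against 7.27, 7.29, 7.46 and 7.11 in Astro-D2KO saline mice. It had 7.18, 6.97, 6.99 and 6.66 in control SE mice, against 7.20, 7.37, 7.46 and 7.44 in control saline mice. The groups overlapped in Astro-D2KO mice through replicate 4 of each, and did not overlap in control mice. Il34 fell by 0.39 ± 0.11 in Astro-D2KO mice (adjusted p = 0.0216) and by 0.42 ± 0.11 in control mice (adjusted p = 0.0125). Leaving out Astro-D2KO SE replicate 2 or 3 or Astro-D2KO saline replicate 3 ended the Astro-D2KO call (adjusted p of 0.0652 to 0.0763). Leaving out both arrays with outlying Dio2 ended the control call (-0.32, adjusted p = 0.0517). Repeated quantile normalisation ended the Il34 call in Astro-D2KO mice (-0.32, adjusted p = 0.0827) and in control mice (-0.35, adjusted p = 0.0533). The averaged fall of Il34, 0.40 ± 0.08, passed under every alternative (adjusted p = 7.22e-04 with all arrays). Il16, a T cell attractant whose longer form is expressed by neurons, fell by 0.46 ± 0.15 in Astro-D2KO mice (adjusted p = 0.0424), a call that ended in 7 of the 16 fits that left out 1 array. The averaged fall of Il16 was 0.41 ± 0.11 (adjusted p = 0.00699).

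The remaining families stayed below the threshold in the averaged comparison. None of the 5 IL-10 family ligands, the 6 IL-10 family receptors, the 6 IL-12 family genes or the 4 common beta chain genes passed. Il10, an anti-inflammatory cytokine, changed by 0.16 ± 0.07 at a mean level of 3.82 (adjusted p = 0.0923). Il23r, a receptor of T cells, was called in control mice alone (0.34 ± 0.11, adjusted p = 0.0317) at a mean level of 3.24, and the call ended in 6 of the 16 fits that left out 1 array. Over all 72 genes that did not pass in the averaged comparison, changes ran between -0.22 (Il1rap) and 0.30 (Lif).

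**Figure D3:**
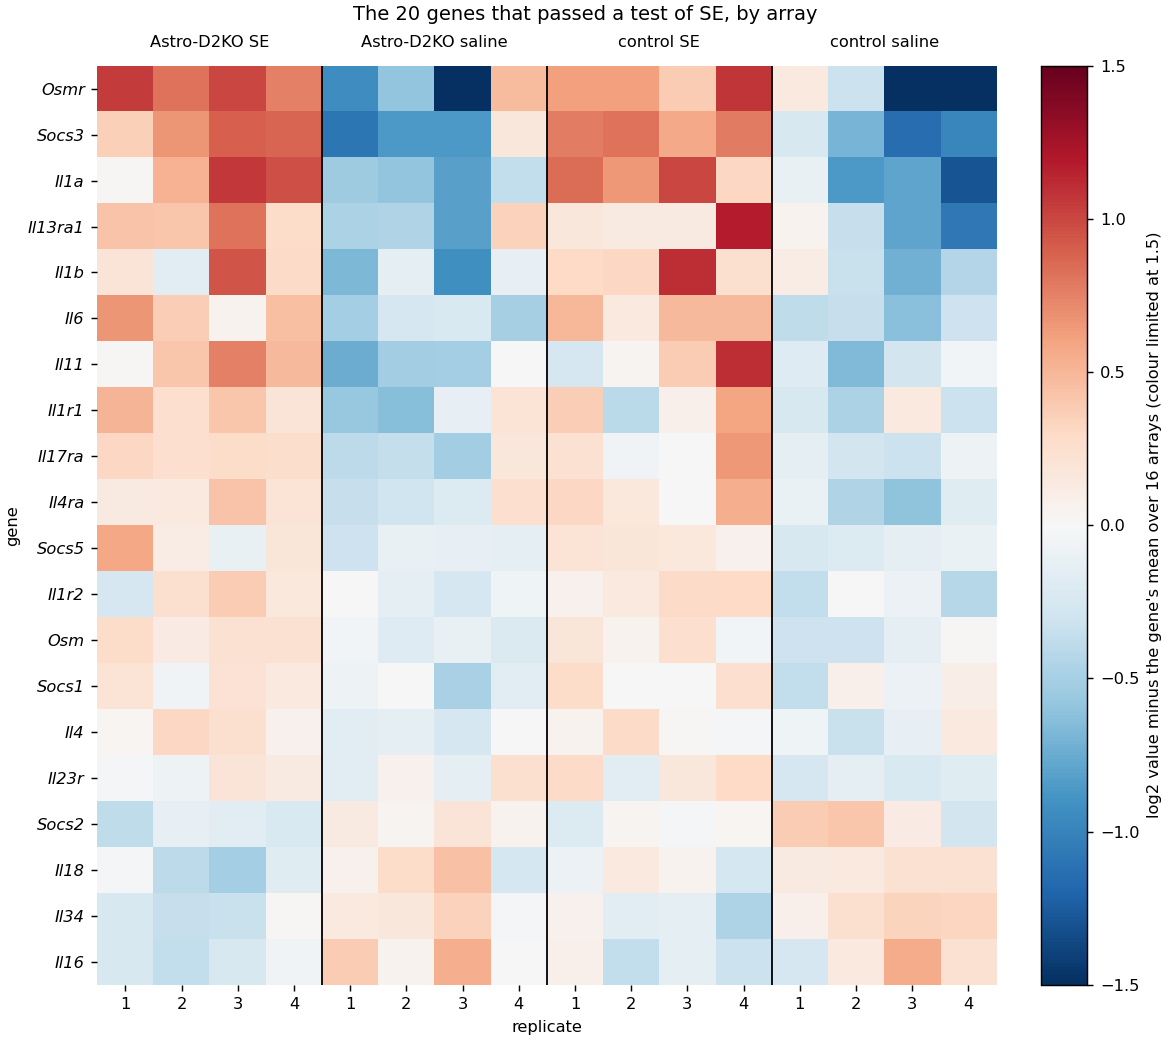
Log2 value minus the gene's mean over the 16 arrays (colour, limited at 1.5) for the 20 genes that passed a test of SE in at least 1 comparison (rows, ordered by averaged change), on each array (columns, by group and replicate). The 4 lowest rows (Socs2, Il18, Il34 and Il16) fell, and the others rose in the comparison they passed. Astro-D2KO saline replicate 4 is above that mean for Osmr, Socs3, Il13ra1, Il1r1, Il17ra and Il4ra, unlike the other arrays of its group.

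The saline groups were not uniform. Of the 15 genes that rose in the averaged comparison, 10 had their highest Astro-D2KO saline value on replicate 4, among them Osmr, Socs3, Il13ra1, Il17ra and Il1a. Over all 91 genes that array was the highest of its group for 35.2%, against 23.1% of all genes, and control saline replicate 4 was the highest of its group for 41.8%, against 29.3%. In control saline mice replicate 1 was the highest for 6 of the 15 (Il13ra1, Il1a, Il1b, Il4ra, Osmr and Socs3) (27.1% of all genes) and replicate 4 for 7. Timp1 and Gfap were highest on Astro-D2KO saline replicate 4 and control saline replicate 1, and low on control saline replicate 4. Timp1, an inhibitor of matrix proteases, had 5.53, 5.76, 4.35 and 7.88 in Astro-D2KO saline mice and 6.58, 6.00, 4.71 and 4.93 in control saline mice. Gfap, the astrocyte filament gene, had 10.52, 10.83, 9.62 and 11.20 in Astro-D2KO saline mice and 10.98, 10.83, 9.87 and 9.65 in control saline mice. The part of these arrays in the results was not tested beyond leaving each out.

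Other genes of these pathways, not all of them downstream of the receptors, were read from lists. Those lists were chosen, like the 91 genes, with earlier results of these data known. The JAK-STAT list includes the ligand genes Ctf1, Ctf2 and Ebi3, of which Ctf2 passed, with a rise, in Astro-D2KO mice only. Of 19 measured JAK-STAT genes outside the 91, 5 rose and 4 fell in the averaged comparison, in which 12.1% of all genes rose and 20.6% fell. Stat3 had 9.55, 9.78, 10.11 and 9.89 in Astro-D2KO SE mice, against 8.66, 8.90, 8.41 and 9.60 in Astro-D2KO saline mice. It had 9.43, 9.39, 9.32 and 9.80 in control SE mice, against 9.38, 8.93, 8.40 and 8.29 in control saline mice. Stat3 rose by 0.94 ± 0.24 in Astro-D2KO mice (adjusted p = 0.00885) and by 0.73 ± 0.24 in control mice (adjusted p = 0.0332). The kinase gene Jak2 rose by 0.32 ± 0.11 in Astro-D2KO mice (adjusted p = 0.0429) and by 0.76 ± 0.11 in control mice (adjusted p = 8.46e-05). Jak1, Stat4 and Stat5a rose in the averaged comparison by 0.21, 0.36 and 0.21, and Tyk2, Stat2, Pias4 and Pias3 fell by 0.51, 0.50, 0.21 and 0.20. Tyk2 and Stat2 serve interferon receptors, and the Pias proteins restrain STATs. Without both arrays with outlying Dio2, 3 rose and 4 fell.

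Of 12 genes known to be raised through STAT3, 9 rose and 0 fell in the averaged comparison, with a median change of 0.93. Of all genes, 12.1% rose and 20.6% fell in that comparison. Pim1, a survival kinase, rose by 1.65 ± 0.14 (adjusted p = 1.39e-07), and Junb, an AP-1 subunit, by 1.91 ± 0.14 (adjusted p = 1.73e-08). Timp1 rose by 1.19 ± 0.43 (adjusted p = 0.0434), and the filament gene Vim by 0.81 ± 0.22 (adjusted p = 0.00717). The changes of Gfap, 0.44 ± 0.23 (adjusted p = 0.162), and of the reactive astrocyte gene Serpina3n, 0.71 ± 0.27 (adjusted p = 0.0565), did not pass. Several of these genes are also raised by neuronal activity or by other factors. Without both arrays with outlying Dio2, 7 rose.

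Of 17 measured genes of IL-1 production and signalling, 8 rose and 1 fell in the averaged comparison, against 12.1% and 20.6% of all genes. Myd88, the adaptor of the interleukin 1 receptor, rose by 0.76 ± 0.16 (adjusted p = 0.00114). Nfkbiz and Nfkbia, regulators of NF-kB that are themselves its targets, each rose by 0.90 (adjusted p = 5.66e-07 for Nfkbiz and 1.44e-06 for Nfkbia). Tnfaip3 and Irak3, brakes on this pathway, rose by 0.53 and 0.43. The receptor kinase gene Irak1 fell by 0.40 ± 0.07 (adjusted p = 3.26e-04). Casp1 (0.05) and Nlrp3 (-0.04), parts of the inflammasome that matures interleukin 1 beta, did not pass (adjusted p of 0.853 and 0.693). Without both arrays with outlying Dio2, 8 rose and 2 fell.

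Some markers of cell types that make or answer these cytokines also changed with SE. Unless a genotype is named, counts here are of the averaged comparison, in which 12.1% of all genes rose and 20.6% fell. In bulk tissue, fewer cells of a type and less RNA per cell cannot be told apart. The summed level of 7 microglia genes ran between 9.79 and 10.04 in Astro-D2KO SE mice, against 10.26 to 10.47 in Astro-D2KO saline mice, and between 9.74 and 10.12 in control SE mice, against 10.23 to 10.42 in control saline mice. The SE arrays were thus all lower, and 5 of the 7 genes fell, P2ry12 by 1.08 ± 0.12 (adjusted p = 1.90e-06), while Csf1r, the receptor for Il34, fell by 0.33 ± 0.08. The summed level of 7 endothelial genes ran between 10.39 and 10.67 in Astro-D2KO SE mice, against 9.82 to 10.06 in Astro-D2KO saline mice, and between 10.44 and 10.69 in control SE mice, against 9.68 to 10.16 in control saline mice. All SE arrays were higher, in a sum that weighs bright genes most. Cdh5 was the brightest of the 7, with a mean of 8.56 over all arrays, and Flt1 came next at 7.97. The sum without Cdh5 was not taken. In the average 3 of the 7 genes rose (Cdh5, Flt1 and Pecam1), 1 fell and 3 did not pass, with Cdh5, a junction cadherin, up by 1.41 ± 0.12 (adjusted p = 1.28e-07) and Tek down by 0.36 ± 0.13. For 10 monocyte and neutrophil genes the sums were 8.39 to 8.53 in Astro-D2KO SE mice, against 8.26 to 8.46 in Astro-D2KO saline mice, and 8.34 to 8.45 in control SE mice, against 8.26 to 8.39 in control saline mice. Those ranges overlapped, and in the average only S100a9 passed (0.23 ± 0.07). In Astro-D2KO mice alone the only call was Mpo (0.31 ± 0.10, adjusted p = 0.0479). The sums of 8 astrocyte genes lay between 12.83 and 13.10 on all arrays and overlapped between SE and saline, with Slc1a2 the only gene called (it fell). None of 6 lymphocyte genes passed. Of 7 neuronal genes 1 rose and 4 fell, and of 6 hippocampal neuron genes 2 fell. Of 7 leptomeningeal genes 1 fell, and none of 8 choroid plexus genes passed, whose sums ran between 9.21 and 13.36 over the arrays. The part of these shifts in the cytokine results was not tested.

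**Figure D4:**
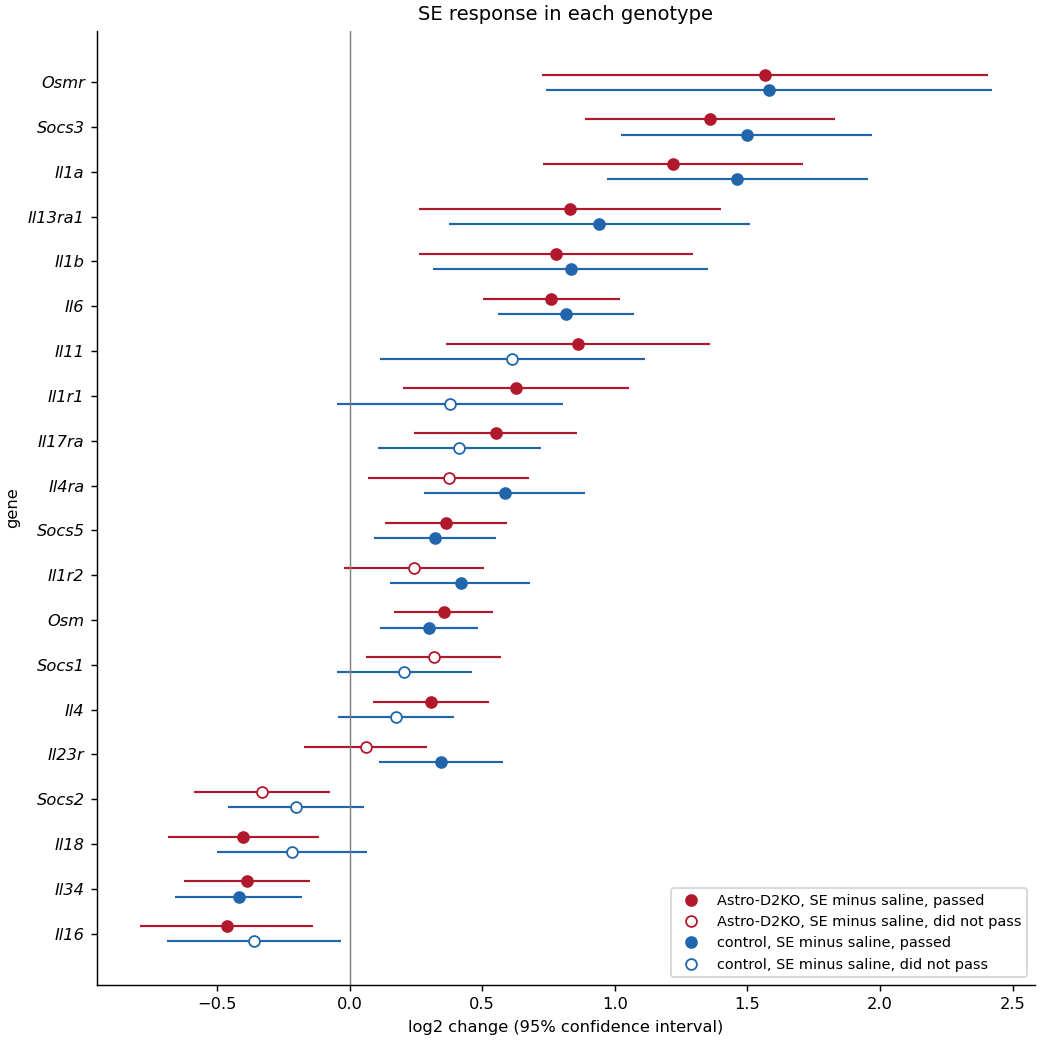
Log2 change with SE in Astro-D2KO mice (red) and in control mice (blue), with 95% confidence intervals (horizontal axis), for the 20 genes that passed at least 1 test of SE (vertical axis); filled points passed in that genotype. The paired intervals overlap for all 20 genes, and 9 genes have both points filled.

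Genotype was compared under saline, after SE, and as the difference between the SE responses of the genotypes. By limma, none of the 91 genes passed in any of these 3 comparisons, and 0% of all genes did. The targeted gene Dio2 was thus not called either, although its saline arrays did not overlap between the genotypes. The lowest adjusted p of any gene was 0.804 under saline and 0.0753 after SE. At an unadjusted p under 0.05 there were 7 of the 91 under saline (3.99% of all genes), 3 after SE (6.12%) and 3 for the difference in response (4.65%). Astro-D2KO arrays lay wholly above control arrays for 0 of the 91 under saline (1.27% of all genes) and 2 after SE (1.53%), Il12b and Il17re, and wholly below for 1 under saline (1.34%), Il2, and 0 after SE (1.40%). The lowest adjusted p among the 91 was 0.722. The genotype difference, Astro-D2KO minus control, ran between -0.29 and 0.31 over the 91 genes under saline and between -0.25 and 0.24 after SE. For Osmr it was 0.25 under saline (95% confidence interval -0.59 to 1.09) and 0.23 after SE (-0.61 to 1.07). For Il6 it was 0.04 under saline (-0.22 to 0.30) and -0.02 after SE (-0.28 to 0.24). For Socs3 it was 0.10 under saline (-0.37 to 0.58) and -0.04 after SE (-0.51 to 0.44), and for Il1a 0.19 under saline (-0.30 to 0.68) and -0.06 after SE (-0.55 to 0.44). Under saline the smallest unadjusted p-values belonged to Il2 (-0.29 ± 0.10), Il17rc (-0.25 ± 0.09), Il7r (-0.28 ± 0.11), Il2ra (0.19 ± 0.08) and Il18bp (0.20 ± 0.09), all with an adjusted p of 0.999. After SE they belonged to Il12b (0.24 ± 0.09), Il18r1 (0.20 ± 0.08), Il17re (0.24 ± 0.11), Il31 (0.22 ± 0.11) and Il1rapl1 (-0.25 ± 0.12), with adjusted p-values of 0.722 to 0.824. Without both arrays with outlying Dio2, again none of the 91 passed, while 1, 5 and 1 of all genes did.

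The intervals show what these 4 arrays a group could and could not separate. The difference in SE response, Astro-D2KO minus control, was -0.06 for Il6 (95% confidence interval -0.42 to 0.31), 0.06 for Osm (-0.21 to 0.32) and 0.03 for Il34 (-0.31 to 0.37). It was less bounded for the genes with the largest changes: -0.01 for Osmr (-1.20 to 1.17), -0.14 for Socs3 (-0.81 to 0.53) and -0.24 for Il1a (-0.94 to 0.45). It was 0.25 for Il11 (-0.46 to 0.95), 0.25 for Il1r1 (-0.35 to 0.85) and -0.21 for Il4ra (-0.64 to 0.22), genes that passed in 1 genotype only, so their responses are not shown to differ. A response in Astro-D2KO mice up to more than a doubling above or below that of control mice would lie inside the Osmr interval. The smallest unadjusted p-values for the difference were those of Il17rc (0.38 ± 0.13), Il17re (0.37 ± 0.15), Il2 (0.29 ± 0.13), Il17d (0.25 ± 0.12) and Il23r (-0.28 ± 0.16), all with an adjusted p of 0.998.

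**Figure D5:**
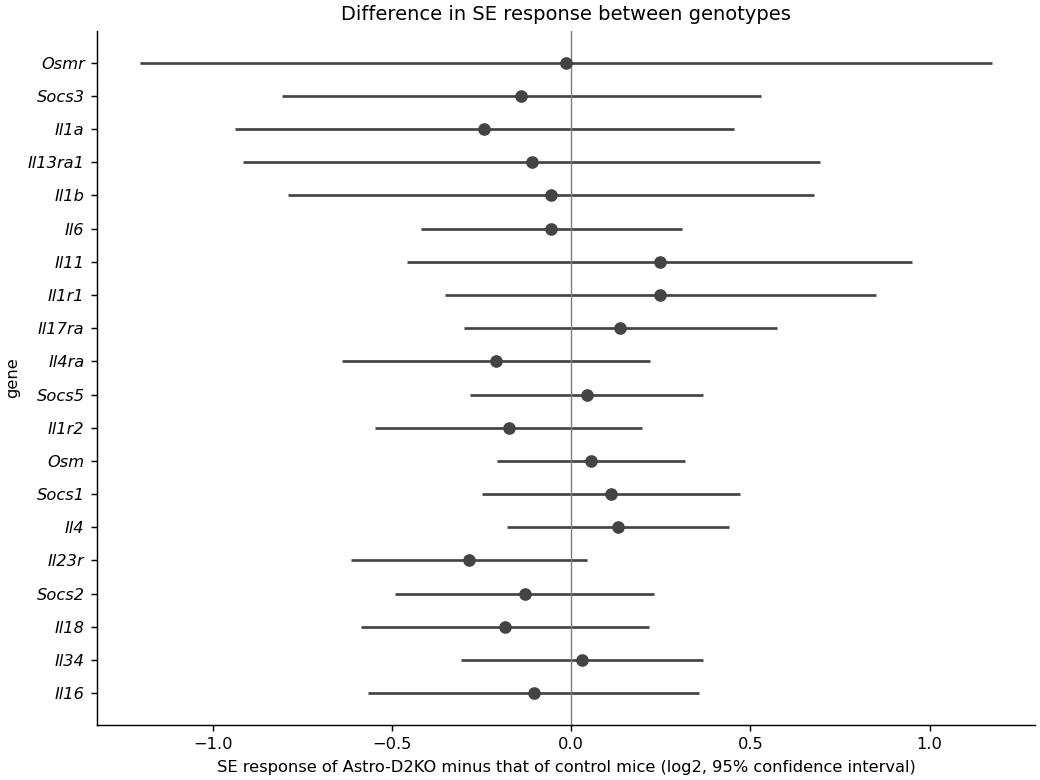
Difference between the SE response of Astro-D2KO mice and that of control mice (log2, horizontal axis, with 95% confidence intervals) for the 20 genes that passed at least 1 test of SE (vertical axis). Every interval includes 0, and the interval of Osmr, -1.20 to 1.17, is the widest.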

How the data were processed

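Hippocampal total RNA of 16 mice was hybridised as biotin-labelled cDNA to Affymetrix arrays. The authors made the deposited values with RMA, per the submitters' processing notes, which corrects background, normalises by quantiles and summarises probe sets. The deposited table was read as log2: the base is not stated, and it was inferred from values of 1.70 to 13.79 and array medians of 5.77 to 5.82. Of 41345 probe sets, 23521 carried 1 gene symbol in GEO's platform annotation, 1814 several and 16010 none. Each gene was read from its brightest probe set, by mean of the 16 arrays (22180 genes, 1082 with several probe sets, Socs2, Socs3 and Il1rap among the 91). No level filter was used. Group means were fitted to the 16 arrays together in limma 3.58.1 (R 4.3.3), with default empirical Bayes, 6 contrasts and Benjamini-Hochberg adjustment over the 22180 genes at 0.05.

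Named genes were the gp130, IL-1 and Socs genes, whether or not they passed, members that passed, and, in genotype comparisons with fewer than 5 calls, the 5 with the smallest p. Il10, Il27 and Il27ra were named outside this rule after their values were seen. Il11ra1 and Il1rl1 were not analysed here. Members, roles and lists were chosen with earlier results of these data known. Marker sums are log2 of summed linear values. The list of blood genes had 0 measured members. Lists for lymphocytes, choroid plexus, leptomeninges and neurons were also summed, and Dio2 was tested by exact permutation. Alternatives changed the probe set rule, the filter on dim genes, centring, normalisation, the variance model, array weights, the replicate block and the arrays used. The fit was tested on simulated data. Promoter sequences are RefSeq's, GRCm38.p6. P-values measure the spread between arrays. Arrays have no read depth, so their number limits the precision.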

Additional observations from a re-analysis of the deposited data

Results flagged for a closer look

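Each named gene was checked in each group for an array far from the others, 172 checks for 43 genes, of which 10 found one; chance gives about 1 in 20. On the log2 scale, Clcf1 had 6.81 in Astro-D2KO SE replicate 3 (others 6.23 to 6.29), and Lif had 6.34 in the array labelled Astro-D2KO SE replicate 1 (others 6.72 to 6.73). Il17rc had 6.72 and Il17re 5.89 in Astro-D2KO SE replicate 4 (others 6.46 to 6.50 for Il17rc and 5.62 to 5.65 for Il17re). Il33 had 9.04 in Astro-D2KO saline replicate 4 (others 7.69 to 7.91), and Socs6 had 6.03 in Astro-D2KO saline replicate 2 (others 6.24 to 6.29). Il13ra1 had 8.37 in the array labelled control SE replicate 4 (others 7.33 to 7.37), Il1b had 5.71 in control SE replicate 3 (others 4.84 to 4.92), and Il6 had 3.48 in control SE replicate 2 (others 3.82 to 3.83). Lif had 6.81 in control saline replicate 1 (others 5.80 to 5.86).

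Among the 43 named genes, SE arrays of 3 interleukin 17 genes lay on opposite sides of the saline means in the 2 genotypes. All Astro-D2KO SE arrays lay above the mean of their saline group, and all control SE arrays lay below the mean of theirs. These 3 genes had been named for their small p-values in genotype comparisons of the same data, so the pattern was partly selected. Subtracting the control response from the Astro-D2KO response gave 0.25 for Il17d (0.02 in Astro-D2KO mice and -0.23 in control mice), 0.38 for Il17rc (0.17 in Astro-D2KO mice and -0.21 in control mice) and 0.37 for Il17re (0.12 in Astro-D2KO mice and -0.24 in control mice). By limma's test of the difference over all genes, none of the 3 passed (adjusted p of 0.998 for each). In Astro-D2KO mice the change of Il17d was smaller than its standard error of 0.08. The share of all genes with this pattern was not taken, and an effect of genotype on the IL-17 family was not tested.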

How the results depend on the processing

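Leaving out 1 array at a time, the number of the 91 genes that rose with SE ran between 6 and 15 in Astro-D2KO mice, 7 and 12 in control mice and 15 and 19 averaged over the genotypes. The number that fell ran between 0 and 3, 1 and 4, and 3 and 5 in the same comparisons, and the number of all genes called between 3486 and 4707, 3998 and 4971, and 6646 and 7286. In those fits 0 of the 91 passed in any genotype comparison, and between 0 and 2 of all genes passed after SE. The number that fell in Astro-D2KO mice, 3, was 1 with each array centred on its median and 0 with repeated quantile normalisation. The number that fell in control mice, 1, was 2 with dim genes left out and 0 without both arrays with outlying Dio2. Of all genes, 1 was called for genotype under saline with only the groups compared in the fit, and without those 2 arrays 1 was called under saline, 5 after SE and 1 for the difference in response. Dropping dim genes removed Il6, Il1b, Il4 and Il23r from the test.

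The labels do not say whether replicate numbers pair the mice. After group means were removed, 4 of 24 correlations between same-numbered arrays exceeded 0.1 (range -0.286 to 0.338). These correlations cannot show whether mice of the same number were handled together. With the replicate number as a block, 9 of the 91 rose and 3 fell in Astro-D2KO mice, 12 rose and 1 fell in control mice, and 16 rose and 5 fell in the average. Among changes of single genes, 69 tests in Astro-D2KO mice, 39 in control mice and 12 in the average lost significance under an alternative, and 10, 7 and 22 gained it. No called change reversed. Il1a, Il6, Osmr and Socs3 passed in both genotypes under all alternatives that tested them. The cause of these shifts was not tested. The pathway lists were rerun under the same alternatives after the data were seen: the STAT3 list had between 7 and 10 rising genes and 0 falling.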
